A study of Homo sapiens with 8 samples.

Results

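Serine/arginine-rich (SR) splicing factors and CLK1, a kinase that phosphorylates them, were examined in human keratinocytes whose mitochondria had been poisoned. The 10 genes were taken by name from the deposited table of 61806 genes: SRSF1, SRSF2, SRSF3, SRSF4, SRSF5, SRSF6, SRSF7, SRSF10, SRSF11 and CLK1. All 10 had enough counts to be tested. Wild-type N/TERT-1 cells, an immortalized line of human epidermal keratinocytes, were treated with ethanol, the solvent (Control), or with O/A, the combination of oligomycin at 10 µM and antimycin A at 4 µM, and mRNA was sequenced from 4 libraries of each condition. Oligomycin blocks the mitochondrial ATP synthase and antimycin A blocks complex III of the respiratory chain. The treatment lasted 4 hours. The duration and the doses come from figure legends of the study, the doses from a legend of another experiment, and the labels give neither. The cells were not sorted, all came from the same line, and each condition is represented by cultures of independent experiments.

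SR proteins carry RNA recognition motifs that bind exons and a tail rich in arginine and serine through which they recruit the splicing machinery. Kinases of the SRPK family phosphorylate this tail in the cytoplasm and those of the CLK family in the nucleus, which sets where SR proteins reside and how they act on splicing. Most SR genes contain a poison exon, a conserved stretch whose inclusion puts a premature stop codon into the mRNA, so that the transcript is sent to nonsense-mediated decay. SR proteins can promote the inclusion of such exons in their own transcripts, which limits their own production. The study sequenced mRNA to ask whether cleavage of SREBP-2 under O/A helps to raise genes of cholesterol synthesis and uptake. Here the comparison of O/A with ethanol is read for the SR genes and CLK1.

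The premature stop codons annotated in the SR genes show what a gene-level count adds together. In GENCODE v44, all 10 genes have at least 1 transcript typed as a target of nonsense-mediated decay, against 47.9% of the 12300 protein-coding genes tested. The SR genes were chosen as genes that hold poison exons, so a high count follows from the choice and is no result. Retained-intron transcripts are annotated for 9 of the 10 genes, the exception being SRSF6. A premature stop inside an extra exon is annotated for 5 of the 10 genes, SRSF3, SRSF4, SRSF6, SRSF7 and SRSF11. Only exons lying wholly within an intron of the main (MANE Select) transcript were counted as extra. The genome sequence (hg38) is shown for those whose mRNA lay lower in O/A than in ethanol in every library, and for CLK1. SRSF4 and SRSF11 are left out because their libraries overlapped. No such exon was found for SRSF1, SRSF2 or SRSF10, which also lay lower in every O/A library, or for SRSF5. These genes have 3, 2, 2 and 1 transcripts typed for decay, in that order. Premature stops that arise in another way were not searched for in the SR genes, so this does not mean that these genes lack a poison exon. Each SR sequence runs from the first base of the extra exon to the premature stop codon, which is in capitals, 5′ to 3′ on the strand of the gene. Where the annotation holds several such exons, as for SRSF3, SRSF7 and CLK1, the longest is shown. The SRSF3 exon of 456 bases lies on the plus strand and is shown over chr6:36599821-36599854. The SRSF7 exon of 449 bases lies on the minus strand and is shown over chr2:38749319-38749346. The SRSF6 exon of 268 bases lies on the plus strand and is shown over chr20:43459153-43459304.
SRSF3: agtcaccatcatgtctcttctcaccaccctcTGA
SRSF7: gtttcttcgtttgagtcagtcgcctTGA
SRSF6: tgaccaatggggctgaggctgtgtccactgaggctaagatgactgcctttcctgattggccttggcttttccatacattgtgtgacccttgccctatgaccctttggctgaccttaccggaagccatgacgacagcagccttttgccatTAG
In CLK1 the arrangement is the reverse, since a transcript typed for decay skips a coding exon of the main (MANE Select) transcript. That exon has 91 bases, a number that is no multiple of 3, on the minus strand at chr2:200860125-200860215.
CLK1: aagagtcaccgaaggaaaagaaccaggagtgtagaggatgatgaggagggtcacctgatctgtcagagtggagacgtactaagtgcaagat
The deposited counts are per gene, so transcripts with and without these exons, and transcripts that keep an intron, were summed, and no value in the text separates them.

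In O/A the mRNA of SRSF3, SRSF7, SRSF2 and SRSF10 fell and that of CLK1 rose. A gene was called upregulated or downregulated if the quasi-likelihood test of edgeR gave it a p of 0.05 or less after Benjamini-Hochberg adjustment (over 14893 genes) and its log2 fold change, log2(FC), exceeded 0.25 in size. Under this rule 4 of the 10 genes were downregulated and 1 was upregulated, whereas 18.9% of all genes tested were downregulated and 15.8% upregulated, 34.7% in either direction. The median log2(FC) was -0.24 over the 10 genes and -0.00040 over all genes tested. The p-value criterion alone was met by 9 of the 10 genes, the exception being SRSF4, and by 53.7% of all genes tested. The O/A libraries lay wholly above or below the ethanol libraries for 7 of the 10 genes, 6 of them lower in O/A, and for 47.6% of all genes tested. With 4 libraries against 4, the exact permutation test can give no two-sided p below 0.0286, and it gave this value for each of those 7 genes. Groups without overlap always give this value, so it restates the separation.

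**Figure D1:**
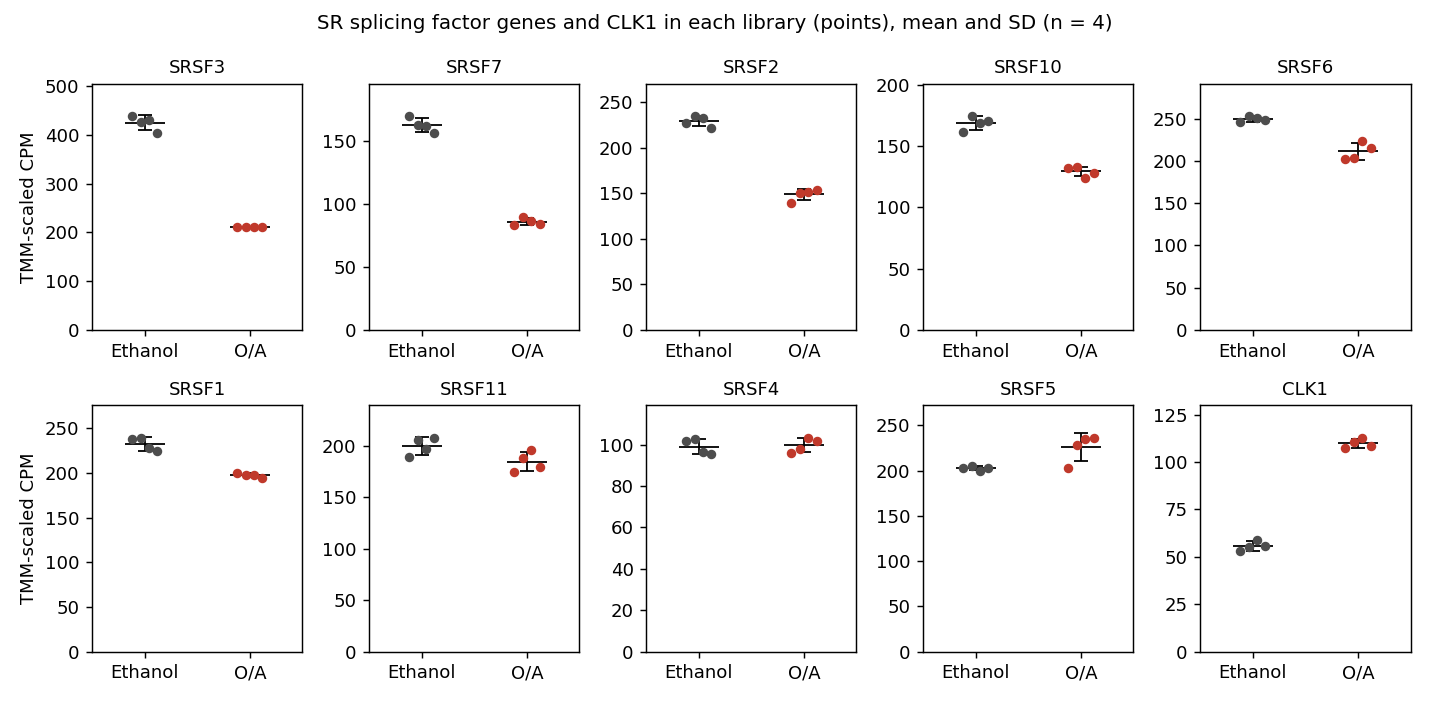
Level of each gene in each library in TMM-scaled CPM (vertical axes from 0, with a separate scale for each gene), with points for the 4 ethanol and the 4 O/A libraries and bars for the mean and SD. Genes run from the lowest to the highest log2(FC). SRSF3, SRSF7, SRSF2, SRSF10, SRSF6 and SRSF1 lay lower in every O/A library, CLK1 lay higher in every O/A library, and SRSF11, SRSF4 and SRSF5 overlapped.

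The largest fall was that of SRSF3, the smallest SR protein, which also takes part in mRNA export and 3′ end processing. SRSF3 lies on chromosome 6 of GRCh38 from 36594353 to 36605600. Its level, as CPM (counts relative to a library total scaled by edgeR's TMM method), was 439, 426, 431 and 404 in ethanol replicates 1 to 4 and 210.1, 211, 212 and 211 in O/A replicates 1 to 4. The lowest ethanol library thus stood far above the highest O/A library, and the O/A libraries lay within 2 CPM of each other. The log2(FC) of SRSF3 was -1.01 (standard error, SE, 0.027, edgeR adjusted p = 9.55e-35), so that O/A left 49.7% of the ethanol level. Of all genes tested, 2.74% had a lower log2(FC). The coefficient of variation between libraries was 3.56% in ethanol and 0.387% in O/A, where counting error alone gives 1.12% and 1.62%.

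SRSF7, the SR protein closest to SRSF3 in sequence and set apart by a zinc knuckle, fell by nearly as much. It lies on chromosome 2 from 38743599 to 38751494. Its level was 170.4, 163, 162 and 157 CPM in ethanol replicates 1 to 4 and 83.2, 89.9, 86.7 and 84.5 CPM in O/A replicates 1 to 4. No O/A library came near the ethanol libraries. The log2(FC) was -0.92 (SE 0.033, edgeR adjusted p = 2.05e-29), which corresponds to 52.8% of the ethanol level.

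SRSF2, also called SC35 and widely used to mark nuclear speckles, had the highest level of the 10 genes per kilobase of exonic length and fell as well. Its gene, on chromosome 17 from 76734115 to 76737333, held 227, 235, 233 and 222 CPM in ethanol replicates 1 to 4. In O/A replicates 1 to 4 it held 139, 150.3, 152 and 154 CPM. O/A replicate 1 was the lowest of these, and all of them were below every ethanol library. The log2(FC) of SRSF2 was -0.62 (SE 0.030, edgeR adjusted p = 7.21e-24). MFSD11, which overlaps SRSF2 on the opposite strand, had a log2(FC) of -0.06 (edgeR adjusted p = 0.501) from 278 to 399 counts in each library. Whether counting used strand is not given in the sources used here, and reads from the shared stretch cannot be assigned.

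SRSF10, which in its dephosphorylated state acts as a repressor of splicing, was the other downregulated gene. It lies on chromosome 1 from 23964347 to 23980927. It had 161, 175, 169 and 170.2 CPM in ethanol replicates 1 to 4 and 132, 133, 124 and 128 CPM in O/A replicates 1 to 4. The groups did not overlap, and the log2(FC) was -0.38 (SE 0.031, edgeR adjusted p = 2.01e-15). The difference is small beside that of SRSF3, since O/A left 76.6% of the ethanol level.

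SRSF1 and SRSF6 lay just inside the fold change threshold. SRSF1, also called SF2/ASF, is the founding member of the family, and SRSF6 belongs with SRSF4 and SRSF5 to the SR proteins with a pair of RNA recognition motifs. SRSF1, on chromosome 17 from 58000919 to 58007346, had 238, 239.8, 228 and 224 CPM in ethanol replicates 1 to 4 and 200.4, 198, 198 and 195 CPM in O/A replicates 1 to 4. SRSF6, on chromosome 20 from 43457893 to 43466046, had 246, 254, 251 and 248 CPM in ethanol replicates 1 to 4 and 203, 204, 223 and 216 CPM in O/A replicates 1 to 4. In both genes every O/A library was below every ethanol library, and the step was small. The log2(FC) was -0.23 for SRSF1 (SE 0.028, edgeR adjusted p = 5.73e-10) and -0.24 for SRSF6 (SE 0.029, adjusted p = 6.39e-10). Neither was called, but quantile normalization placed SRSF1 at -0.30 and SRSF6 at -0.32, past the threshold, and SRSF6 was also past it, at -0.26, without O/A replicate 3.

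SRSF11, SRSF4 and SRSF5 overlapped between conditions. SRSF11, a larger and more distant relative of the family, lies on chromosome 1 from 70205682 to 70253052 and had 189, 206, 196 and 208 CPM in ethanol replicates 1 to 4. It had 175, 188, 196 and 179 CPM in O/A replicates 1 to 4, and its log2(FC) was -0.12 (SE 0.033, edgeR adjusted p = 0.00365). Of the O/A libraries of SRSF11, replicate 3 lay within the range of the ethanol libraries and the others lay below it. SRSF4, on chromosome 1 from 29147743 to 29181900, had 102, 103, 96.6 and 95.4 CPM in ethanol replicates 1 to 4 and 95.9, 98.0, 103 and 102 CPM in O/A replicates 1 to 4. Its log2(FC) was 0.01, with a 95% interval from -0.06 to 0.08 (adjusted p = 0.802), and its sign changed with the setting. SRSF5, on chromosome 14 from 69726900 to 69772005, had 203, 204.6, 199 and 203 CPM in ethanol replicates 1 to 4 and 203, 228, 234 and 236 CPM in O/A replicates 1 to 4. O/A replicates 2 to 4 of SRSF5 were above all ethanol libraries and O/A replicate 1 was level with them. The log2(FC) of SRSF5 was 0.16 (SE 0.035, edgeR adjusted p = 5.60e-04) and 0.21 without O/A replicate 1, within the fold change threshold in both cases. The adjusted p of SRSF5 was 0.0709 under quantile normalization and 0.0574 and 0.0594 in limma on log2(FPKM + 0.1) and log2(FPKM + 1).

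CLK1, the dual-specificity kinase that phosphorylates SR proteins in the nucleus, rose by about as much as SRSF3 fell on the log2 scale. The gene lies on chromosome 2 from 200853009 to 200864691. It had 53.0, 55.0, 59.0 and 55.7 CPM in ethanol replicates 1 to 4. It had 107, 111, 113 and 108.5 CPM in O/A replicates 1 to 4. Every O/A library held far more than the highest ethanol library, and the libraries of each condition lay close together. The log2(FC) was 0.98 (SE 0.037, edgeR adjusted p = 1.80e-28), a level of 198% of that in ethanol. Of all genes tested, 97.3% had a lower log2(FC). GENCODE lists 8 retained-intron transcripts for CLK1 among 14, the main transcript covers 36.1% of the exonic size, and the count sums over all of them.

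The other kinases of the CLK family did not move together. CLK2 was downregulated, and its log2(FC) was -0.46 (SE 0.052, edgeR adjusted p = 1.04e-10). Its levels were 45.0, 45.0, 47.5 and 44.1 CPM in ethanol replicates 1 to 4 and 28.6, 34.9, 34.7 and 33.4 CPM in O/A replicates 1 to 4. CLK3 (log2(FC) 0.53, SE 0.047) and CLK4 (0.47, SE 0.065) were upregulated, with adjusted p-values of 3.24e-14 and 1.41e-08. In FPKM, the deposited fragments per kilobase of exon, scaled to library size, CLK1 ranged from 10.5 to 11.8 in the ethanol libraries and from 20.6 to 21.6 in the O/A libraries. The mean of CLK2 was 12.6 FPKM in ethanol and 8.84 in O/A, that of CLK3 1.89 and 2.65, and that of CLK4 2.30 and 3.10. CLK1 made up 39.7% ± 0.898 of the summed CLK level in ethanol and 59.2% ± 1.31 in O/A, while CLK2 made up 45.3% ± 0.450 and 24.7% ± 1.41 (SD, n = 4 libraries). These shares rest on the exonic size, and no other length was run for the CLK genes. In counts not divided by length, CLK1 stood above CLK2 in ethanol too, with means of 55.7 and 45.4 CPM. CLK3, with an exonic size of 19697 bases, had means of 36.7 CPM in ethanol and 53.0 CPM in O/A. In O/A it thus stood above CLK2, at 32.9 CPM, on this scale and below it in FPKM. The summed CLK level itself, in FPKM, was 27.8 ± 0.940 in ethanol and 35.7 ± 1.34 in O/A.

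**Figure D2:**
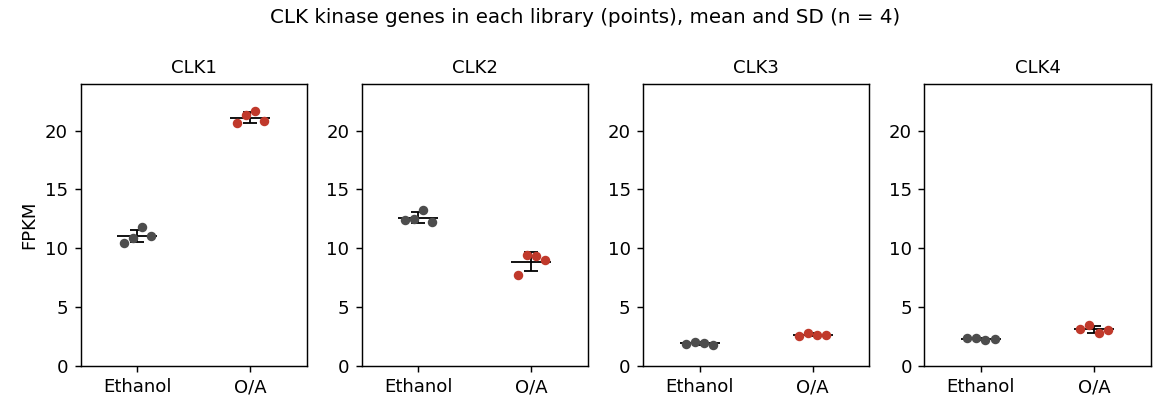
FPKM of the 4 CLK kinase genes in each library (vertical axis from 0, the same for all panels), with points for the 4 ethanol and 4 O/A libraries and bars for the mean and SD. CLK1 stood at 10.5 to 11.8 FPKM in ethanol and 20.6 to 21.6 FPKM in O/A, and CLK2 was lower in O/A.

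SRPK1 and SRPK2, the kinases that phosphorylate SR proteins in the cytoplasm, were not called. Their log2(FC) was -0.19 (SE 0.029, adjusted p = 1.62e-07) and -0.21 (SE 0.037, adjusted p = 3.20e-06) in edgeR. SRPK1 passed the threshold under quantile normalization (-0.26), and SRPK2 did so on log2(FPKM + 0.1) (-0.25). For both, every O/A library was below every ethanol library, from 144 to 149.7 CPM against 166 to 169 for SRPK1 and from 76.7 to 86.3 CPM against 90.1 to 97.3 for SRPK2. TNPO3, the importin that carries phosphorylated SR proteins into the nucleus, had a log2(FC) of 0.05 (adjusted p = 0.138). In the whole list of 12 SR protein kinases and the importer, 10 genes were tested, 2 were upregulated and 3 downregulated. That is 50% called, against 34.7% of all genes tested. The lowest value was that of DYRK2, a kinase of the DYRK family (log2(FC) -0.78, adjusted p = 6.15e-19).

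**Figure D3:**
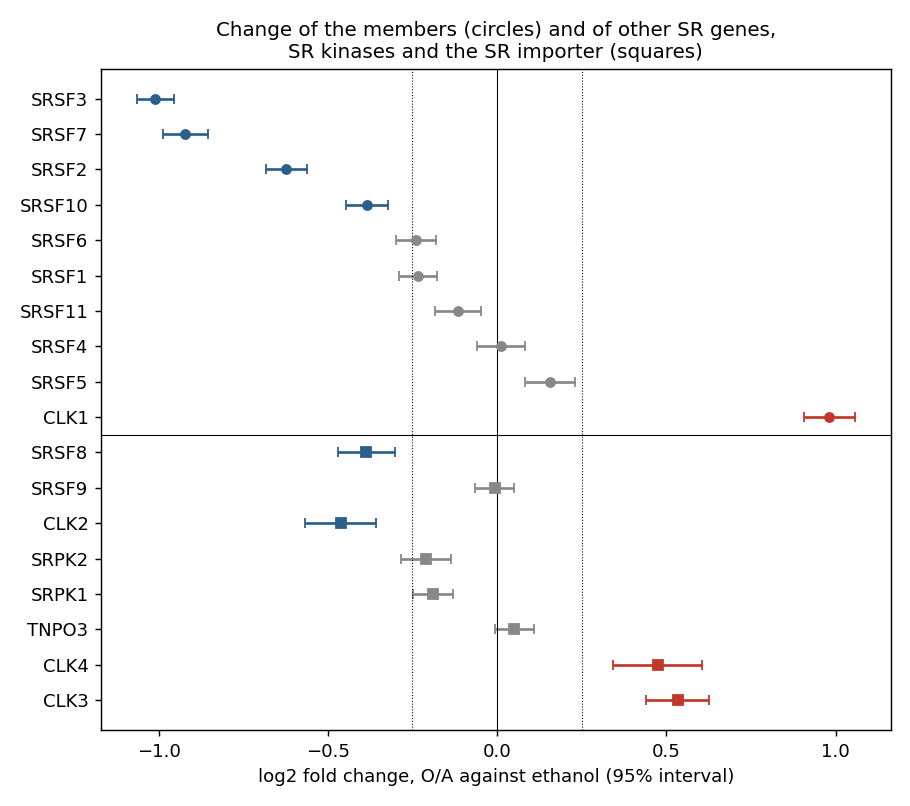
log2(FC) of O/A against ethanol with its 95% interval for SRSF1 to SRSF7, SRSF10, SRSF11 and CLK1 (circles), and for SRSF8, SRSF9, CLK2, CLK3, CLK4, SRPK1, SRPK2 and TNPO3 (squares). Red marks upregulated genes, blue downregulated genes and gray genes that were not called, and dotted lines stand at 0.25 in either direction. The values run from -1.01 for SRSF3 to 0.98 for CLK1.

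The remaining SR genes were SRSF8, SRSF9 and SRSF12. SRSF8, a gene derived from SRSF2 by retrotransposition, was downregulated, and its log2(FC) was -0.39 (SE 0.041, edgeR adjusted p = 2.05e-11). It had 68.3, 66.5, 68.1 and 64.1 CPM in ethanol replicates 1 to 4 and 54.4, 49.1, 50.4 and 50.3 CPM in O/A replicates 1 to 4, without overlap. SRSF9, the closest relative of SRSF1, had a log2(FC) of -0.0067 with a 95% interval from -0.06 to 0.05 (adjusted p = 0.865), and its sign changed with the setting. SRSF12 had 5, 3, 4 and 3 counts in ethanol replicates 1 to 4 and 0, 0, 2 and 0 counts in O/A replicates 1 to 4, too few for the filter on low counts. Without that filter it was called down (edgeR adjusted p = 0.0352 over 32119 genes), on these few counts. Since SRSF8 and SRSF2 share sequence, reads could have been counted on the wrong copy. Rows named as pseudogenes of the 10 genes held at most 7 counts in any library.

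Levels compared per kilobase of exonic length changed order between conditions. In ethanol SRSF2 stood first at 78.2 ± 2.17 FPKM, followed by SRSF3 (60.5 ± 2.17), SRSF6 (51.8 ± 0.820), SRSF7 (40.9 ± 1.37), SRSF1 (40.8 ± 1.26), SRSF5 (38.3 ± 0.334), SRSF11 (23.9 ± 1.05), SRSF10 (14.4 ± 0.511) and SRSF4 (11.4 ± 0.395 FPKM), each as mean and SD of 4 libraries. Only the neighbours SRSF7 and SRSF1, and SRSF4 and CLK1, overlapped in this order of the ethanol libraries. In O/A the order began with SRSF2 (49.1 ± 2.13 FPKM), SRSF6 (42.4 ± 1.92), SRSF5 (41.4 ± 2.82) and SRSF1 (33.6 ± 0.427), and SRSF3 (29.1 ± 0.0868) came after them. SRSF11 (21.4 ± 1.08 FPKM), CLK1 and SRSF7 (20.9 ± 0.755 FPKM) followed and could not be ranked, because each overlapped the next. The same held for SRSF6 and SRSF5, and for SRSF4 (11.1 ± 0.372 FPKM) and SRSF10 (10.7 ± 0.349 FPKM). SRSF3 thus stood above SRSF6, SRSF1 and SRSF5 in ethanol and below them in O/A. This order rests on the exonic size. Per kilobase of the main (MANE Select) transcript, the mean of SRSF3 came after those of SRSF5 and SRSF2 and before that of SRSF1 in both conditions. It came before that of SRSF6 in ethanol, while in O/A the means of SRSF3 and SRSF6, 49.0 and 47.7, were too close to be ranked.

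The summed level of the 9 SRSF genes in FPKM was 360.3 ± 6.29 with ethanol and 259.9 ± 7.39 with O/A (mean and SD of 4 libraries), or 72.1% of the ethanol level. The ethanol libraries ranged from 352 to 367 FPKM and the O/A libraries from 249 to 266 FPKM, so the sums did not overlap. FPKM is scaled to library totals and not by TMM, unlike the percentages given for single genes. On log2(FPKM + 0.1) the median log2(FC) over all genes tested was -0.043, against -0.00040 in edgeR with TMM. As a share of this sum, SRSF3 went from 16.8% ± 0.437 to 11.2% ± 0.293, SRSF7 from 11.4% ± 0.307 to 8.05% ± 0.255 and SRSF2 from 21.7% ± 0.292 to 18.9% ± 0.351. The share of SRSF5 went from 10.6% ± 0.194 to 15.9% ± 0.670 and that of SRSF6 from 14.4% ± 0.218 to 16.3% ± 0.484. SRSF10 held 4.01% ± 0.141 and 4.13% ± 0.228, a difference smaller than the SD in O/A. These shares are a description, without a test. The sum and the shares depend on the length used. The main transcript covers 92.4% of the exonic size of SRSF1 but 27.9% of that of SRSF5. Per kilobase of the main transcript, SRSF5 stood first in both conditions, with 21.05% of the sum in ethanol and 29.6% in O/A, and SRSF3 went from 15.6% to 9.82%. In bulk RNA, a smaller amount of a transcript per cell cannot be told apart from fewer cells that hold it.

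**Figure D4:**
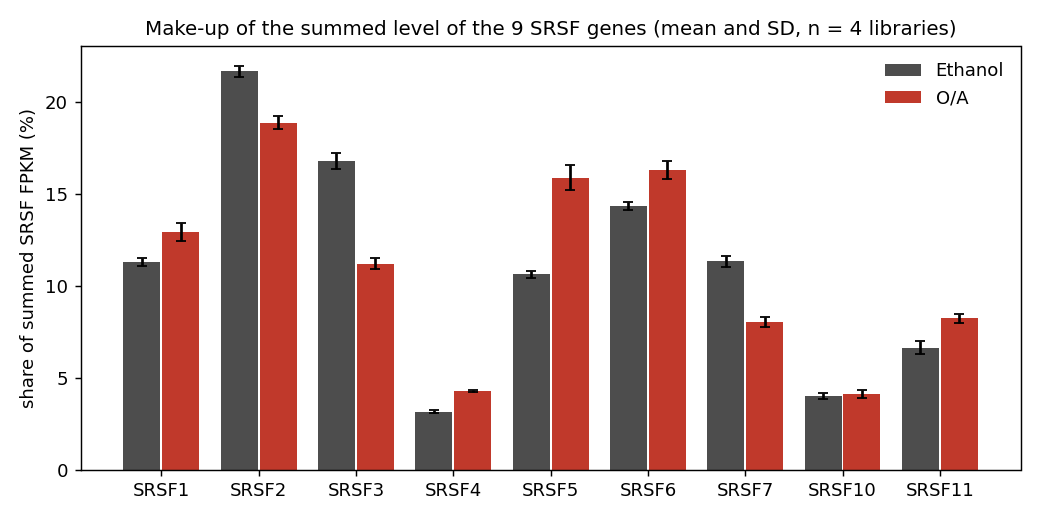
Share of each of the 9 SRSF genes in their summed FPKM, in percent (vertical axis from 0), as mean and SD of 4 ethanol libraries (gray) and 4 O/A libraries (red). The share of SRSF3 went from 16.8% to 11.2% and that of SRSF5 from 10.6% to 15.9%.

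Splicing genes outside the SR family set these values beside those of their machinery. The SR-related proteins, which carry a tail rich in arginine and serine but act as coactivators, speckle proteins or cyclins, moved in both directions. Of 30 tested, 6 were upregulated and 11 downregulated, that is 56.7% called against 34.7% of all genes tested. Their median log2(FC) was -0.07. THRAP3 (log2(FC) -0.81, adjusted p = 8.87e-29), a speckle protein tied to the Mediator complex, and CDK12 (-0.60, adjusted p = 5.54e-23), a kinase of RNA polymerase II, had the lowest values. RSRP1 (log2(FC) 1.01, adjusted p = 7.47e-25) and CCNL1 (0.57, adjusted p = 4.06e-18), a cyclin of speckles, had the highest. All 4 were called in edgeR. The values thus spread over about the same range as those of the SRSF genes and CLK1.

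The heterogeneous nuclear ribonucleoproteins (hnRNPs), which often act against SR proteins at exons, had values between -0.47 and 0.40. Of 29 tested, 1 was upregulated and 4 were downregulated, that is 17.2% called against 34.7% of all genes tested, and the median log2(FC) was -0.11. This low share rests on the fold change threshold. Another 18 met the p-value criterion but not that threshold, as did 2834 of all 14893 genes tested. The O/A and ethanol libraries did not overlap for 23 of the 29, and for 47.6% of all genes tested. Quantile normalization called 11 of the hnRNP genes down, so the share called also depends on the scaling. The lowest log2(FC) were those of HNRNPF (-0.47, adjusted p = 1.21e-20) and PTBP2 (-0.44, adjusted p = 3.14e-05), and the highest those of HNRNPLL (0.40, adjusted p = 1.77e-11) and PCBP2 (0.22, edgeR adjusted p = 7.83e-09). PCBP2 was within the fold change threshold. PTBP2 is a gene of low level here, at 0.838 FPKM in ethanol. Among proteins of the core spliceosome, 0 of 32 were upregulated and 7 downregulated in edgeR, with a median log2(FC) of -0.07. That is 21.9% called, against 34.7% of all genes tested. Here too the share rests on the fold change threshold. Another 10 of the 32 met the p-value criterion but not that threshold, as did 2834 of all 14893 genes tested. The O/A and ethanol libraries did not overlap for 15 of the 32, and for 47.6% of all genes tested. DESeq2 also called 0 up, and at an unadjusted p under 0.05 edgeR gave 3 with higher values in O/A. PRPF4 (-0.61, adjusted p = 9.12e-19), a protein of the U4/U6 particle, and SF3B4 (-0.60, adjusted p = 2.57e-19), a subunit of the U2 particle, had the lowest values. SNRPA1 and SF3B5, each with a log2(FC) of 0.20, had the highest and were not called.

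Factors of nonsense-mediated decay, the route by which transcripts with a poison exon are removed, had values between -0.29 and 0.33. Of 15 genes of decay and the exon junction complex, 2 were upregulated and 3 downregulated, with a median log2(FC) of -0.08. That is 33.3% called, close to the 34.7% of all genes tested. UPF2 (-0.29, adjusted p = 2.61e-09) and SMG6, the endonuclease (-0.27, adjusted p = 3.03e-07), had the lowest values, and SMG1, the kinase of UPF1 (0.33, adjusted p = 0.0349), and SMG5 (0.27, adjusted p = 4.55e-11) the highest in edgeR. SMG1 had an adjusted p between 0.0561 and 0.0833 without ethanol replicate 1, 2 or 3 or without O/A replicate 2, 3 or 4, and only 1 gene of the list was upregulated in each of these fits. Without ethanol replicate 4 or O/A replicate 4, SMG6 had a log2(FC) of -0.24, within the threshold. SMG5 was within it under quantile normalization (0.21), on log2(FPKM + 0.1) (0.23) and on log2(FPKM + 1) (0.22).

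The genes whose libraries followed CLK1 most closely were sought among 11386 genes with a mean of at least 1 FPKM. Likeness was the root mean square difference of log2 CPM over the 8 libraries after each gene's ethanol mean was subtracted. The smallest differences from CLK1 were those of MARS1 (0.039), the cytosolic methionyl-tRNA synthetase, NPC1 (0.044), a cholesterol transporter of lysosomes, and EHF (0.053), an epithelial transcription factor. For SRSF3 they were those of CCND1 (0.027), which encodes cyclin D1, CDCA7 (0.039) and ARHGAP11A (0.040). CCND1 had a log2(FC) of -0.99 and MARS1 of 0.95. With a single step between conditions, this measure mostly finds genes that changed by the same amount.

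Several facts of the whole series bear on these values. The total count per library ran from 17210404 to 20999927 in ethanol and from 17689760 to 19263046 in O/A, and the least counted of the 10 genes, CLK1, had 980 to 1185 counts per ethanol library. Pairs of libraries of the same condition differed by 1.81 to 6.19 in chi-square per degree of freedom, above sampling noise. This shows only that they are not the same library sequenced again. Each was counted as a separate sample because the study describes independent experiments. Keratinocyte markers were abundant, with KRT5 at 1433 FPKM in ethanol, and in sum 8 markers held 5137 to 5477 FPKM in ethanol and 4658 to 4903 FPKM in O/A. Markers of melanocytes (4 genes) summed to at most 0.660 FPKM and those of fibroblasts (4 genes) to at most 2.94 FPKM, nearly all of it COL1A1. MLANA and TYR had no count in any library, and COL1A2 and the immune marker PTPRC had at most 1. KRT5 (log2(FC) -0.30), SFN (-0.28) and the immune marker ITGAM (0.95, with 5 to 26 counts per library) were called, and their part in the values of the SR genes and CLK1 was not tested.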

How the data were processed

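mRNA selected with oligo(dT) was sequenced from 8 libraries. Conditions and replicate numbers were taken from the sample labels. The deposited counts were made by the authors with HISAT2 2.0.1 on GRCh38.p13 and HTSeq 0.6.1, and are raw. The Ensembl release and the strand setting are not given in the sources used here. The FPKM values were deposited by the authors, from those counts, the exonic gene sizes and the library totals. Their table of DESeq2 fold changes and p-values was not used.

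A gene needed 10 or more counts in 4 or more libraries, and the 14893 that met this were tested with edgeR 4.0.16 in R 4.3.3 (TMM scaling, robust quasi-likelihood test, Benjamini-Hochberg adjustment over all genes tested). Standard errors and 95% intervals come from this test. For the SR and kinase genes an exact two-sided permutation test was added. Between 17210404 and 20999927 fragments were counted per library. The 10 genes and all lists were chosen with earlier results of these data known. Named are the 10 genes, the other SR genes, CLK2 to CLK4, SRPK1, SRPK2, TNPO3, the 2 highest and 2 lowest genes of each further list, and the 3 genes most like CLK1 and most like SRSF3. Other genes appear as cell markers, as an overlapping gene or for their counts and were named after their values were seen. Sequences were read from hg38 with GENCODE v44, in which the 10 genes had the same start and end as in the deposited table.

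Alternatives were DESeq2 1.42.0, median-ratio factors, quantile normalization, limma 3.58.1 on log2(FPKM + 0.1) or log2(FPKM + 1), all genes without a filter, genes with a mean of 5 FPKM or more, protein-coding genes alone, the replicate number as a block, other fold change thresholds, each library left out and, for shares, TPM made from the deposited FPKM or another length. The length of the main transcript was added after the data were seen. The tests were first run on simulated data. There edgeR recovered 48 of 67 genes changed by 0.5 on the log2 scale, 63 of 67 changed by 1 and 66 of 66 changed by 2, with 5 false calls. Some results on cell markers are not reported here.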

Additional observations from a re-analysis of the deposited data

Results flagged for a closer look

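In 4 of 82 groups of 4 libraries, 1 library stood far from the other 3, where chance gives about 4.1. None of the 10 SR and CLK1 genes was among them. As TMM-scaled CPM, CDK12 had 108 in O/A replicate 2 against 105 in the other O/A libraries. RSRP1 had 32.5 in ethanol replicate 1 against 29.6 to 29.8 in the others. PRPF4 had 74.2 in ethanol replicate 4 against 78.0 to 78.4, and MARS1 had 142 in ethanol replicate 3 against 135. The part of these gaps in any result was not tested.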

How the results depend on the processing

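The calls of SRSF3, SRSF7, SRSF2, SRSF10 and CLK1 held in all 17 alternatives that kept the fold change threshold of 0.25, with the log2(FC) from -1.09 to -0.99 for SRSF3, -0.98 to -0.89 for SRSF7, -0.69 to -0.59 for SRSF2, -0.44 to -0.36 for SRSF10 and 0.88 to 1.02 for CLK1. SRSF5 and SRSF11 were called in none of these 17. SRSF1 was called under quantile normalization (-0.30), on log2(FPKM + 0.1) (-0.28) and on log2(FPKM + 1) (-0.27). SRSF6 was called under the same settings (-0.32, -0.29 and -0.28) and at a mean of 5 FPKM or more (-0.26), and lay between -0.26 and -0.21 as libraries were left out. SRSF4 changed sign under quantile normalization (-0.025), on log2(FPKM + 0.1) (-0.035) and log2(FPKM + 1) (-0.032) and at a mean of 5 FPKM or more (-0.0039), and lay between -0.00049 and 0.035 as libraries were left out. SRSF9 changed sign with DESeq2 (0.00057), median-ratio factors (0.00054) and protein-coding genes alone (0.0068), and lay between -0.0095 and 0.015 as libraries were left out. TNPO3 had -0.018 under quantile normalization, and PTBP2 lost its call on log2(FPKM + 1) (-0.20), as SMG5 did there (0.22), on log2(FPKM + 0.1) (0.23) and under quantile normalization (0.21). The cause was not tested.

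Without a fold change threshold, 2 of the 10 genes were called up and 7 down. Above an absolute log2(FC) of 1 the numbers were 0 and 1. They were 1 and 4 to 5 as libraries were left out. Over all genes, 5165 were called, 7999 without a fold change threshold (3868 up), 797 above 1 (382 up, 415 down) and 2183 at a mean of 5 FPKM or more (1097 up, 1086 down), a setting that tests fewer genes. A total of 1514 were up on log2(FPKM + 1).

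Without a fold change threshold, 6 kinases were down, 10 SR-related genes were up, 6 hnRNP genes were up and 17 down, 3 core spliceosome genes were up and 14 down, and 7 decay genes were down. Above 1 no further list had a gene called, apart from 1 SR-related gene up, so the kinases had 0 up and 0 down, and the other SR genes, SR-related genes, hnRNP, core spliceosome and decay genes had 0 down. Without a filter 2 other SR genes, SRSF8 and SRSF12, were down. At a mean of 5 FPKM or more the kinases had 0 up, since CLK3 and CLK4 were not tested. Quantile normalization gave 11 hnRNP genes down and 0 decay genes up. On log2(FPKM + 0.1) 1 decay gene was up and 5 were down, and 1 was up on log2(FPKM + 1) and without a filter. As libraries were left out, 1 to 2 decay genes were up.

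With the length of the main transcript, which was chosen after seeing the data, the shares in ethanol and O/A were 6.77% and 7.29% for SRSF1, 18.9% and 15.5% for SRSF2, 15.6% and 9.82% for SRSF3, 6.70% and 8.54% for SRSF4, 21.05% and 29.6% for SRSF5, 8.92% and 9.55% for SRSF6, 10.8% and 7.19% for SRSF7, 3.43% and 3.33% for SRSF10, and 7.86% and 9.17% for SRSF11.

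Libraries with the same replicate number were not paired, as their deviations correlated at 0.044, -0.0032, -0.028 and 0.074. A replicate block gave 5160 called genes, 5117 of them shared with the fit without it, and changed the call or direction of none of the 58 results refitted. Of the SR genes, SRSF12 has the fewest counts and is the least precise.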
